A study of Phanerodontia chrysosporium with 18 samples.

Results

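CYP5136A3 and CYP63A4 are 2 cytochrome P450 genes of the white-rot fungus Phanerochaete chrysosporium that carry curated names in the deposited table, where they are also called Pc-pah4 and pc-4. They were chosen by protein number, 2909668 for CYP5136A3 and 3033029 for CYP63A4, and are 2 of the 13602 gene models in the table and 2 of the 155 models matched as cytochrome P450. Strain RP-78 grew on thin tangential sections of spruce sapwood (Picea glauca), set in agar that supplied nitrogen and mineral salts but no nutrient carbon. RNA was taken at 40 h and at 96 h after inoculation from 3 samples per time, each a pool of 20 sections, so differences between single sections are averaged out. Each of the 6 libraries was sequenced in 3 lanes, and lanes were averaged and not counted as replicates. All libraries share strain, wood and medium and differ by time alone, so time in culture and the state of the colonized wood cannot be told apart.

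Cytochrome P450 monooxygenases are heme enzymes that insert an oxygen atom from molecular oxygen into a substrate. In fungi most are anchored in the endoplasmic reticulum and receive electrons from NADPH through a cytochrome P450 reductase, in some reactions with cytochrome b5. In white-rot fungi they are known for hydroxylating aromatic compounds, including fragments of lignin and pollutants, and for oxidizing fatty acids and alkanes. CYP5136A3 has been studied as an enzyme that oxidizes polycyclic aromatic hydrocarbons and alkylphenols, and the CYP63 family for oxidation of alkanes and aromatic compounds. Values are RPKM, which corrects reads for gene length and for sequencing depth, so levels of different genes can be set side by side.

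Both genes were expressed at both times and fell between 40 h and 96 h. CYP5136A3 was the P450 model with the highest level at 40 h and fell about 5.24-fold on the scale of the test, and CYP63A4, which CYP5136A3 exceeded 8.44-fold at 40 h, fell about 3.83-fold. At 40 h CYP5136A3 stood at 1109, 1552 and 1813 RPKM in libraries 1, 2 and 3. At 96 h it stood at 326, 197 and 335 RPKM. The lowest 40 h library lay far above the highest 96 h library, and within 96 h library 2 was well below the other two. The mean was 1491 ± 356 RPKM at 40 h and 286 ± 77.2 RPKM at 96 h (SD, n = 3). The log2 fold change of RPKM + 1 was -2.39 (SE 0.245, 95% interval -2.96 to -1.82), with an adjusted p of 8.30e-05 in limma's moderated test with Benjamini-Hochberg adjustment over 11725 gene models.

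CYP63A4 stood at 146, 167 and 216 RPKM in the 40 h libraries 1, 2 and 3. Its 96 h values were 46.2, 51.0 and 37.8 RPKM. Again no library of one time reached the values of the other time, but at 96 h library 2 was the highest for CYP63A4 and the lowest for CYP5136A3. The mean was 176 ± 35.9 RPKM at 40 h and 45.0 ± 6.69 RPKM at 96 h (SD, n = 3), giving a log2 fold change of -1.94 (SE 0.16, 95% interval -2.31 to -1.57, limma adjusted p = 2.50e-05). The background was large: 62.0% of all tested models passed this test, 35.6% lower at 96 h and 26.3% higher, and in 69.3% the libraries of the 2 times did not overlap. A fall as such was therefore common in these libraries. Falls of at least 2-fold were found in 7.47% of the tested models, and falls of at least 3-fold, which both genes showed, in 3.23%. CYP5136A3 ranked 173 of 11725 by size of fall and CYP63A4 ranked 254. In bulk RNA of a whole colony, fewer cells of a kind and less transcript per cell cannot be told apart.

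**Figure D1:**
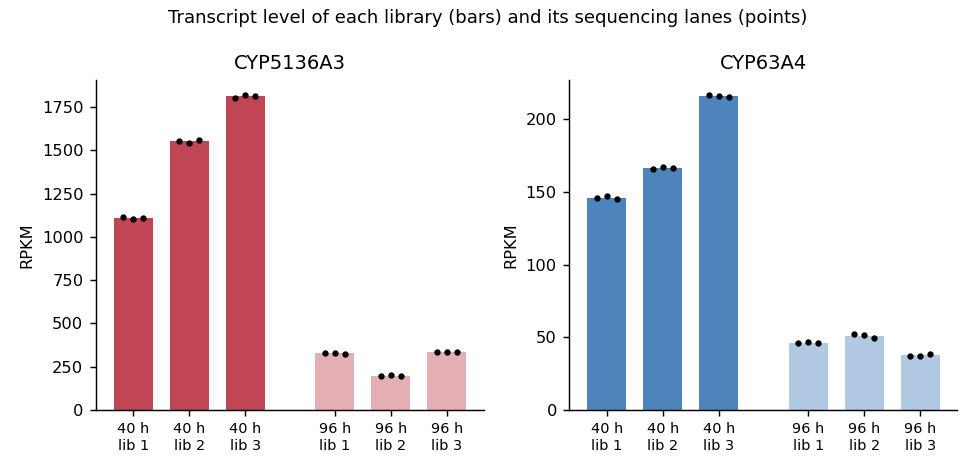
RPKM of CYP5136A3 (left) and CYP63A4 (right) in each of the 6 libraries. Bars are library means, dark for 40 h and pale for 96 h, and points are the 3 lanes of the library; lanes nearly coincide, and every 40 h bar lies above every 96 h bar of the same gene.

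Sequencing lanes of a library agreed closely for both genes. The lanes of CYP5136A3 at 40 h spanned 1104 to 1114 RPKM in library 1 and 1805 to 1818 RPKM in library 3. The coefficient of variation between lanes had a median of 0.51% for CYP5136A3 and 1.02% for CYP63A4, and was at most 2.2% and 2.6%. The spread between libraries was many times larger than between lanes. In log2 units the SD of CYP5136A3 among the 40 h libraries was 0.362, larger than for 98.7% of the tested models, whose median SD was 0.071. For CYP63A4 it was 0.285, larger than for 97.4% of the models. At 96 h, where the median SD was 0.12, the SD was 0.43 for CYP5136A3, larger than for 96.8% of the models, and 0.216 for CYP63A4, larger than for 82.2%. Pools of the same time thus varied more for both genes than for most models at both times, for CYP63A4 more markedly at 40 h.

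The highest 40 h library was library 3 for both genes and the lowest was library 1, with a ratio of highest to lowest of 1.64 for CYP5136A3 and 1.48 for CYP63A4. Of the tested models 22.3% had the libraries in this same order, so the order was not particular to these genes. At 96 h the genes differed. CYP5136A3 had library 2 lowest and library 3 highest, an order shared by 7.1% of the models, and CYP63A4 had library 3 lowest and library 2 highest, an order shared by 17.7%. Library 2 of the 96 h group also stood apart across all tested models, with correlations of log2(RPKM + 1) of 0.984 and 0.992 with libraries 1 and 3 against 0.995 between those. Its part in the difference between the genes was not tested beyond leaving it out. No source used here states read totals. Judged by the steps between the lowest RPKM values, depth relative to 40 h library 1 was 0.722 and 0.948 in the other 40 h libraries, and it was 0.483, 0.505 and 0.713 at 96 h.

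Set in order of level, CYP5136A3 at 40 h came first, followed by CYP5136A3 at 96 h, CYP63A4 at 40 h and CYP63A4 at 96 h. The middle neighbours in this order were not separated, because the lowest 96 h library of CYP5136A3 (197 RPKM) lay below the highest 40 h library of CYP63A4 (216 RPKM). Within every library CYP5136A3 exceeded CYP63A4. The ratio was 7.59, 9.32 and 8.40 in the 40 h libraries and 7.05, 3.86 and 8.88 in the 96 h libraries. The values of the times overlapped, with library 2 at 96 h far below the rest. The mean log2 ratio was 3.07 ± 0.148 at 40 h and 2.64 ± 0.62 at 96 h (SD, n = 3), a difference of -0.43 (SE 0.368). An exact two-sided permutation test gave p = 0.3, where 3 against 3 libraries cannot go below 0.1. A difference in the size of the falls was thus not shown. Without library 2 of the 96 h group the difference was -0.09 (SE 0.187).

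The authors' deposited table gives for CYP5136A3 means of 1461 and 278 RPKM, a ratio of 96 h over 40 h of 0.190 and a p-value of 6.55e-09. For CYP63A4 the authors' deposited table gives 174 and 44.6 RPKM, a ratio of 0.257 and a p-value of 8.64e-09. The geometric means over the 9 lane columns of each time were 1461 and 278 RPKM for CYP5136A3 and 174 and 44.6 RPKM for CYP63A4, equal to those means to the digits shown. No source used here states what that p-value treats as a replicate, but the table's t values, -232 for CYP5136A3 and -208 for CYP63A4 in the authors' deposited table, can be set beside t statistics of log2 RPKM. Taken over 3 lane means per time, each averaged over the libraries, these were -377 and -446. Over the 3 libraries per time they were -7.36 and -9.39. Across the 11725 models the authors' t values had a rank correlation of 0.998 with the former and 0.941 with the latter, a description across genes. Over all 9 lane columns per time the t statistics were -14.7 and -18.7, with a rank correlation of 0.969. None of these units gave the authors' t values for either gene. By rank across genes the authors' t values were thus closest to those over lane means. What the deposited p-values measure stays unknown, and they are not comparable with those of limma given here.

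The level of CYP5136A3 placed it among the most abundant transcripts of the colony at 40 h. It ranked 45 of all 13602 models at 40 h and 452 at 96 h, where the median model stood at 13.0 and 12.6 RPKM. CYP63A4 ranked 747 at 40 h and 3101 at 96 h. Among the 155 P450 models CYP5136A3 ranked 1 at 40 h and 2 at 96 h, and CYP63A4 ranked 5 and 36. At 96 h the next model, 2980040, stood at 348, 198 and 283 RPKM, above CYP5136A3 in libraries 1 and 2 and below it in library 3, so these were not separated. The fall thus left CYP5136A3 near the top of its family, whereas CYP63A4 moved well down the order. The 155 models include 3030117, ranked above CYP63A4 at both times, which has no match to the Pfam P450 domain.

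CYP5136A3 alone held 27.7% ± 4.76 of the RPKM summed over the P450 models at 40 h and 5.02% ± 1.37 at 96 h (SD, n = 3). CYP63A4 held 3.28% ± 0.462 and 0.79% ± 0.12. Of the RPKM summed over all models, CYP5136A3 took 0.179% ± 0.0433 at 40 h and 0.0365% ± 0.00992 at 96 h. The summed P450 level itself stood at 4908, 5451 and 5662 RPKM at 40 h and at 5607, 5731 and 5754 RPKM at 96 h, so the times overlapped. Leaving CYP5136A3 out, the sum was 3799, 3898 and 3849 RPKM at 40 h and 5281, 5534 and 5419 RPKM at 96 h, and the times no longer overlapped. The P450 model of highest level at 96 h was another one, 3029010, which went from 18.7, 28.6 and 12.98 RPKM to 662, 685 and 746 RPKM (log2 fold change 5.12, SE 0.236, limma adjusted p = 1.24e-06).

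**Figure D2:**
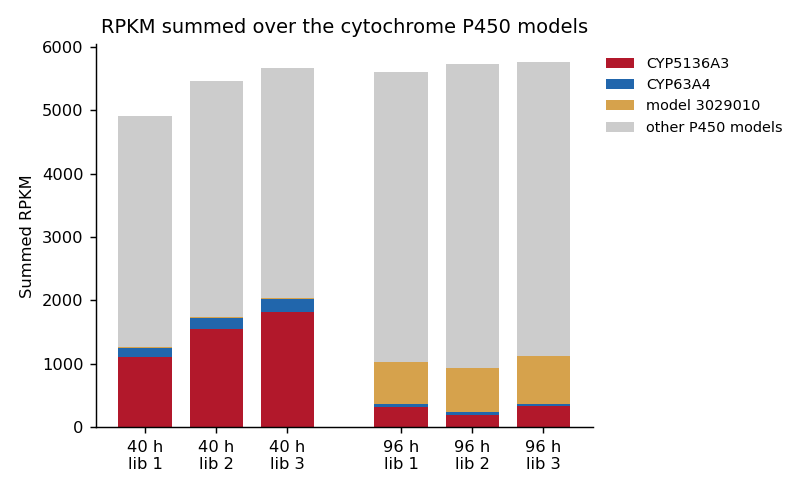
RPKM summed over the 155 P450 models in each library, with the shares of CYP5136A3, CYP63A4 and model 3029010 in colour. The CYP5136A3 segment shrinks from between 1109 and 1813 RPKM at 40 h to between 197 and 335 RPKM at 96 h, while the whole bar stays between 4908 and 5754 RPKM.

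Named relatives of both genes were present in the table and served as a comparison within each family. CYP5136A2 (2910204, also pc-pah1), the other named CYP5136 gene and likewise studied for oxidation of aromatic hydrocarbons, was low at both times. It stood at 8.26, 7.54 and 11.7 RPKM at 40 h and at 6.92, 7.13 and 7.56 RPKM at 96 h, and the times overlapped. It did not pass the test (log2 fold change -0.29, SE 0.143, limma adjusted p = 0.113). The log2 ratio of CYP5136A3 to CYP5136A2 went from 7.34 ± 0.314 at 40 h to 5.27 ± 0.421 at 96 h (SD, n = 3).

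The CYP63 genes went different ways. CYP63A3 (2897381, pc-3) stood at 81.2, 87.4 and 87.0 RPKM at 40 h and rose to 113, 118 and 125 RPKM at 96 h (log2 fold change 0.47, SE 0.07, limma adjusted p = 0.000639). Every 96 h library of CYP63A3 lay above its 40 h libraries, the reverse of CYP63A4. CYP63A2 (3023652, pc-2), studied as an oxidizer of alkanes and aromatic compounds, fell from 26.6 ± 1.84 to 14.2 ± 3.48 RPKM (SD, n = 3; log2 fold change -0.88, SE 0.151, limma adjusted p = 0.00136). CYP63A1 (139141, pc-1) stood near the limit of the filter, at 1.38 ± 0.0879 and 1.20 ± 0.133 RPKM, and did not pass (adjusted p = 0.237, limma). At 40 h CYP63A4 was thus the most abundant of the named CYP63 genes, and at 96 h CYP63A3 was.

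The difference in change between relatives was tested on the log2 ratio per library. Between CYP63A4 and CYP63A3 it was -2.44 (SE 0.215), between CYP63A4 and CYP63A1 -1.75 (SE 0.211) and between CYP63A4 and CYP63A2 -1.03 (SE 0.164). Between CYP5136A3 and CYP5136A2 it was -2.07 (SE 0.303). In each of these pairs the ratios of the 2 times did not overlap, and the exact two-sided permutation test gave p = 0.1, the smallest value the design allows. Adjusted over the 5 pairs compared, the one between CYP5136A3 and CYP63A4 included, these p were 0.125, so none could pass a threshold of 0.05. No source used here states how reads shared by similar P450 genes were assigned, and values of close relatives are uncertain to that extent.

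The other models with a curated P450 name had smaller log2 fold changes than either gene. CYP5144A7 (3022678, pc-pah3) went from 40.6 ± 6.42 to 26.6 ± 7.37 RPKM (SD, n = 3; log2 fold change -0.62, SE 0.192, limma adjusted p = 0.0236), with overlapping libraries. Its call was lost without 40 h library 2 or 3 and without 96 h library 1 or 3, with adjusted p of 0.0862, 0.0715, 0.0606 and 0.0743 in limma. The table gives the name CYP5142A3 to 2 models. One of them, 2944764 (Pc-pah6), stood at 51.9 ± 4.29 and 63.2 ± 9.54 RPKM and did not pass (limma adjusted p = 0.0758), but was higher when libraries were rescaled (adjusted p = 0.0241 with trimmed-mean and 0.0227 with median-ratio scaling, limma) and without 96 h library 1 (adjusted p = 0.0128, limma). The other, 1162853 (Pc-pah5), stood at 2.20 ± 0.139 and 2.16 ± 0.0777 RPKM (limma adjusted p = 0.841). CYP5036A1 (2916416, Pc-hn1) at 12.9 and 11.3 RPKM and CYP5144A1 (2895415, Pc-pah10) at 2.64 and 3.35 RPKM did not pass either, with adjusted p of 0.201 and 0.247 in limma. CYP5036A1 was lower without 96 h library 2 (adjusted p = 0.033, limma). Of the 11 P450 models with a curated name, 4 were thus lower, 1 was higher and 6 did not pass, against 35.6% lower and 26.3% higher among all tested models.

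In the whole P450 list 148 of 155 models passed the filter on low values. Of these, 51 (34.5%) were lower at 96 h and 58 (39.2%) higher, against 35.6% and 26.3% of all tested models, and the median log2 fold change was 0.02 against -0.08 over all tested models. At least 2-fold falls were found for 17 of the 148 P450 models and at least 2-fold rises for 34, against 7.47% and 8.35% of all tested models. Falls of at least 3-fold were found for 11 of the 148, against 3.23% of all tested models. CYP5136A3 had the 6th and CYP63A4 the 8th largest fall of the list by log2 fold change. The largest belonged to 2908838, a P450 model with no family name in the table and chosen after its values were seen, which went from 328 ± 26.9 to 37.4 ± 3.10 RPKM (SD, n = 3; log2 fold change -3.10, SE 0.091). The next in mean level over all libraries after CYP5136A3 and 3029010 was 2974374, which rose from 173 ± 23.4 to 236 ± 12.6 RPKM (log2 fold change 0.46, limma adjusted p = 0.00712).

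**Figure D3:**
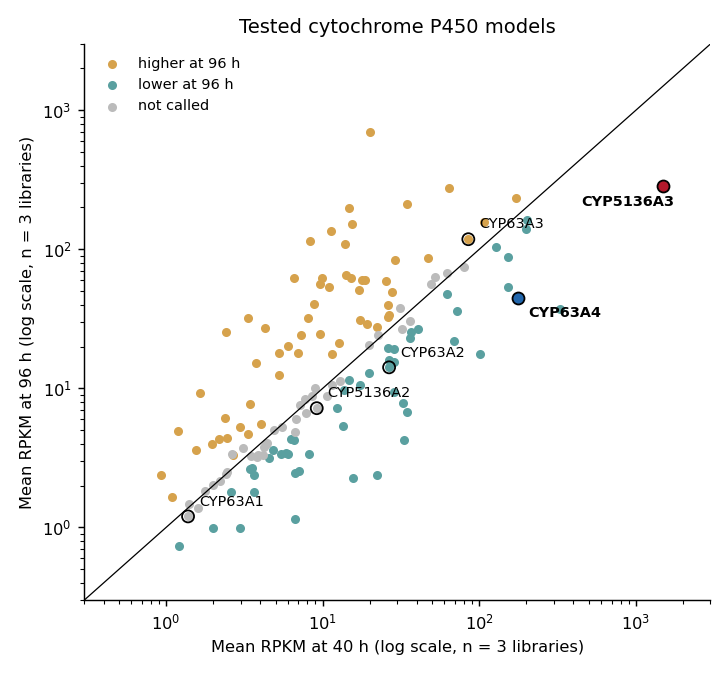
Mean RPKM at 96 h against mean RPKM at 40 h for the 148 tested P450 models, both axes logarithmic, with the line of equal levels. Colours give the call of limma's test; CYP5136A3 and CYP63A4 lie below the line at the right, CYP63A3 above it, and CYP5136A2 and CYP63A1 close to it.

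Features of the annotation that did not enter the choice of the genes also differed between them. In the deposited table the match to the Pfam P450 domain runs from position 45 to 517 in CYP5136A3, a span of 473, which 11 of the 154 models with that domain exceeded. In CYP63A4 it runs from 359 to 530, a span of 172 against a median of 226. The table lists a signal peptide probability of 0.999 for CYP63A4 and none for CYP5136A3. Such a value is listed for 59 of the 155 P450 models (38.1%) and for 9.37% of all models. The membrane anchor at the start of P450 proteins is known to resemble a signal peptide.

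Profiles over the 6 libraries were compared by the root mean square (RMS) difference of log2(RPKM + 1) after subtracting each gene's mean, which reflects the fall and the spread within a time together. The fall with time dominates this measure, and nothing about shared function follows from it. For CYP63A4 the 4 closest of 11724 models all had an annotated function. They were a fragment of a GMC (glucose-methanol-choline) oxidoreductase (2988597, RMS difference 0.09), a mitochondrial carnitine-acylcarnitine carrier (3012378, 0.10), isocitrate lyase (3004959, 0.11) and a second GMC oxidoreductase (3026582, 0.11). The carrier moves fatty acyl groups into mitochondria, and isocitrate lyase is an enzyme of the glyoxylate cycle. The carrier stood at 177, 213 and 258 RPKM at 40 h and at 47.3, 58.9 and 44.3 RPKM at 96 h, so library 3 was highest at 40 h and library 2 highest at 96 h, as for CYP63A4. Isocitrate lyase stood at 2448, 2635 and 3326 RPKM and at 686, 938 and 673 RPKM, with the libraries in the order of CYP63A4 at both times. Next among annotated models was an M20 family peptidase (2977249, 0.13), at rank 7.

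CYP5136A3 had no match as close. Its nearest annotated model was an aryl alcohol dehydrogenase-like aldo-keto reductase (336, RMS difference 0.23), a member of an enzyme group that reduces aromatic aldehydes. The other aldo-keto reductases curated as aryl alcohol dehydrogenase were higher at 96 h. Their log2 fold changes were 3.45 (11055), 2.35 (3028048), 0.42 (3025513) and 0.27 (3006107). Model 336 stood at 182, 175 and 272 RPKM at 40 h and at 55.4, 30.4 and 38.9 RPKM at 96 h. It was lowest in library 2 at 96 h, as CYP5136A3 was. It was followed by a model with a deaminase-reductase domain (2987233, 0.25), an expansin-like protein given as EXPN in the table (5506, 0.25), a thioredoxin peroxidase (3007320, 0.30) and an A1 family peptidase (2908672, 0.31). The RMS difference between CYP5136A3 and CYP63A4 was 0.43, which ranked CYP63A4 at 112 for CYP5136A3 and CYP5136A3 at 500 for CYP63A4. Among P450 models 2983985 (0.40), CYP63A4 (0.43) and 2980309 (0.44) came closest to CYP5136A3, and 2980309 (0.17), 2966134 (0.24) and 2990048 (0.28) to CYP63A4. CYP63A4 was thus the second closest P450 to CYP5136A3, while CYP5136A3 was not among the 3 P450 models closest to CYP63A4.

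**Figure D4:**
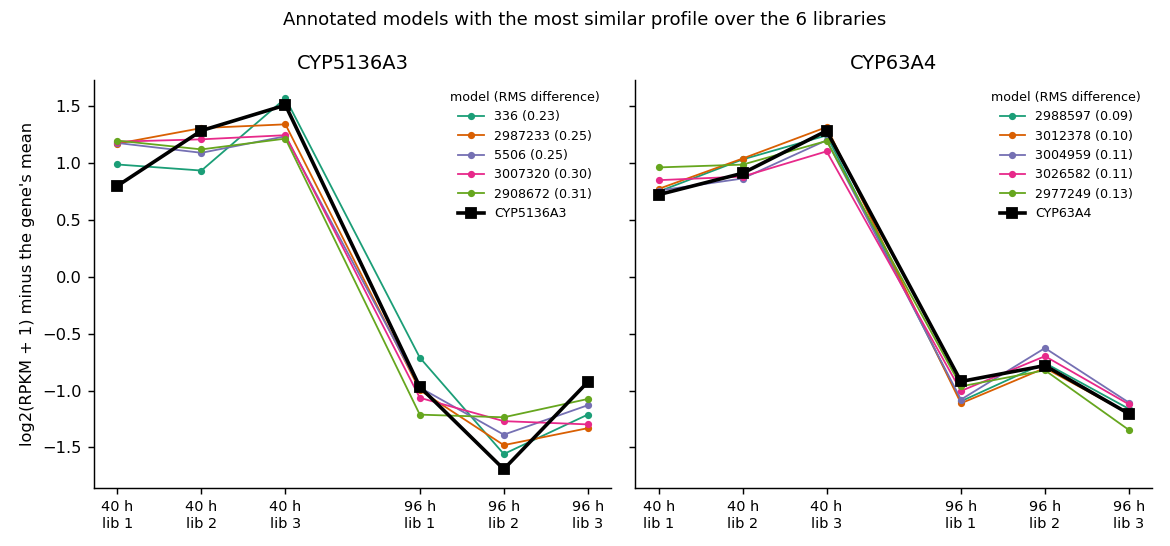
Profiles of log2(RPKM + 1) minus the gene's mean over the 6 libraries for CYP5136A3 (left, black) and CYP63A4 (right, black) with the 5 annotated models of most similar profile, RMS difference in brackets. The lines nearly coincide for CYP63A4 (0.09 to 0.13) and spread more for CYP5136A3 (0.23 to 0.31).

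Among electron donors of P450s only cytochrome b5 was matched by name, and its models went different ways. Cytochrome b5, a small heme protein that can pass electrons to P450s, was matched by 5 models, of which 2 were lower and 2 higher at 96 h, against 35.6% and 26.3% of all tested models. The most abundant, 2975783, fell from 1004 ± 22.8 to 618 ± 12.9 RPKM (SD, n = 3; log2 fold change -0.70, limma adjusted p = 0.000137), and 2980493 rose from 102 ± 4.26 to 142 ± 9.36 RPKM (0.47). Without 40 h library 2 or 3, or without 96 h library 1 or 3, 1 of the 5 was higher, and likewise with a replicate block by barcode number. No model was matched by name as a cytochrome P450 reductase. Model 3030117, also chosen after its values were seen, is curated as cytochrome P450 but has a type 1 FAD-binding domain, which such reductases carry. It went from 201 ± 4.62 to 161 ± 11.5 RPKM (log2 fold change -0.32, limma adjusted p = 0.00722). This model has no match to the Pfam P450 domain but is counted among the 155 P450 models, in their calls, sums, shares and ranks. It ranked 3 of them at 40 h and 7 at 96 h, above CYP63A4 at both times.

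Genes for synthesis of heme, the cofactor of P450s and also of peroxidases, were higher for 5 of 7 models and lower for 1, against 26.3% and 35.6% of all tested models. Uroporphyrinogen decarboxylase (2899377) rose from 54.9 ± 3.51 to 253 ± 9.73 RPKM (log2 fold change 2.19) and porphobilinogen synthase (2971738) from 50.01 ± 2.34 to 134 ± 8.38 RPKM (1.41). The median log2 fold change of the list was 1.12, against -0.08 over all tested models. In the same libraries the secreted lignin and manganese peroxidases, heme enzymes themselves, were higher for 14 of 15 models and lower for none, among them LiPE (1716042, log2 fold change 8.54) and mnp1 (8191, 7.95).

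Enzyme classes that can act on products of P450 reactions went both ways. Whether the models matched by name do so in this fungus was not tested. Epoxide hydrolases, which open the epoxides that P450s can form on aromatic rings, did not pass for 5 of 6 models, and 1 was lower, against 35.6% of all tested models. The exception, the epoxide hydrolase-like 2969609, fell from 92.2, 101 and 130 RPKM to 12.9, 14.2 and 10.4 RPKM (log2 fold change -3.01, SE 0.148, limma adjusted p = 1.65e-06). Library 3 was its highest at 40 h and library 2 its highest at 96 h. The most abundant epoxide hydrolase by mean over all libraries, 2990002, stood at 88.5 ± 12.8 and 75.7 ± 9.52 RPKM and did not pass (adjusted p = 0.164, limma). Without 96 h library 2, 3 of the 6 were lower. UDP-glycosyltransferases, which attach sugars to hydroxyl groups, were lower for 3 of 5 models and higher for none, against 35.6% and 26.3% of all tested models, with 3026707 falling from 220 ± 40.6 to 26.7 ± 6.11 RPKM (log2 fold change -3.01) and 2968315 by 0.93 on the log2 scale.

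Glutathione transferases, which conjugate electrophilic products, were higher for 12 of 26 models (46.2%) and lower for 9 (34.6%), against 26.3% and 35.6% of all tested models. The most abundant, 3031824, rose from 314 to 1182 RPKM (log2 fold change 1.91), and 2913441 fell by 0.29 on the log2 scale, a call lost without 40 h library 2 or 96 h library 3 (limma adjusted p = 0.0513 and 0.0576). O-methyltransferases, a class that includes enzymes capping phenolic hydroxyl groups, were matched by name in 14 models, of which 9 (64.3%) were higher and 3 (21.4%) lower. One of the higher models, 3027728 (log2 fold change 0.70), is a protein L-isoaspartate O-methyltransferase, an enzyme of protein repair that acts on carboxyl groups. The most abundant were 2661209 (log2 fold change 6.10) and 2974896 (5.23). Without 40 h library 1 or with median-ratio scaling 1 O-methyltransferase was lower. With a filter of 5 RPKM none was lower, since the 3 lower models stood below that level in every library and were not tested. Ring-cleaving dioxygenases, which open hydroxylated aromatic rings, were higher for all 8 matched models, against 26.3% of all tested models, among them the catechol 1,2-dioxygenase 2922705 (from 128 ± 19.6 to 519 ± 85.5 RPKM) and the chlorocatechol 1,2-dioxygenase 3011088 (from 209 ± 9.60 to 435 ± 106 RPKM). Flavin monooxygenases were a mixed list of FAD-binding monooxygenases, a class that includes aromatic-ring hydroxylases, and models annotated as flavin-containing monooxygenase (FMO). They were higher for 7 of 30 tested models (23.3%) and lower for 13 (43.3%), against 26.3% and 35.6% of all. With a filter of 5 RPKM the lower ones numbered 7. The other lower models did not reach that filter, so fewer models of the list were tested. The most abundant ones, 3005119 (annotated as FMO) and 3005740 (annotated as FAD-binding), were higher with log2 fold changes of 1.38 and 3.84.

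Aryl alcohol and aldehyde dehydrogenases include enzymes that interconvert the alcohols, aldehydes and acids that oxidation yields. The models matched by name were split, with 12 of 28 higher and 12 lower (42.9% each), against 26.3% and 35.6% of all tested models. The most abundant were the aldehyde dehydrogenase 137014 (log2 fold change 2.37) and the glutathione-dependent formaldehyde dehydrogenase 2975262 (from 284 ± 41.5 to 1136 ± 116 RPKM). The match also took in the formaldehyde dehydrogenase 2987995 and the P5C dehydrogenase 2990363, both called higher like 2975262. Among the lower models it took in 2916462, curated as a GMC oxidoreductase. Genes of fatty acid beta-oxidation, the route that products of alkane oxidation enter, were lower for 6 of 17 models (35.3%) and higher for 4 (23.5%), near the 35.6% and 26.3% of all tested models, with a median log2 fold change of -0.05. Of the 3-ketoacyl-CoA thiolases, 2976634 fell from 635 ± 103 to 454 ± 38.3 RPKM and 2985713 rose from 267 ± 26.7 to 344 ± 23.8 RPKM. Sterol synthesis, which includes P450 steps of its own, was lower for 4 of 12 tested models (33.3%) and higher for 2 (16.7%), against 35.6% and 26.3% of all. With either rescaling 5 were higher. Rescaling also moved the median log2 fold change of all tested models from -0.079 to -0.008 (trimmed-mean) and -0.005 (median-ratio), so 26.3% is not the background for those 5. The sterol desaturase 2970124 did not pass (limma adjusted p = 0.209) and the sterol methyltransferase 2981942 fell by 1.12 on the log2 scale. Some models matched here by a prenyltransferase and squalene oxidase domain may act elsewhere.

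**Figure D5:**
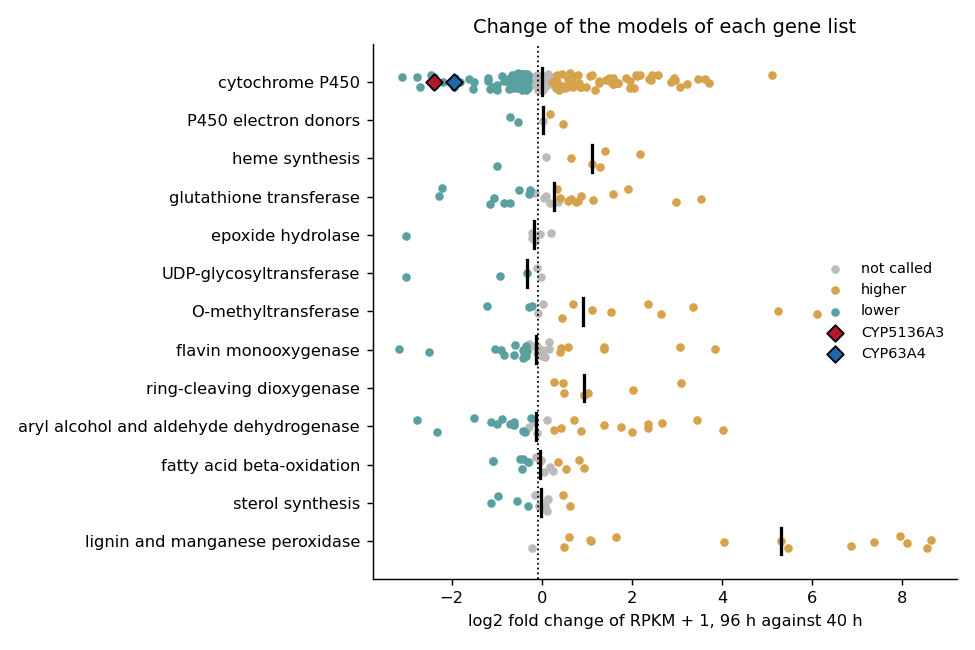
Log2 fold change of RPKM + 1, 96 h against 40 h, for each tested model (points) of the 13 gene lists, coloured by the call of limma's test, with the list median as a black bar and the median of all tested models (-0.08) as a dotted line. CYP5136A3 and CYP63A4 are diamonds on the left of the P450 list, whose models spread from -3.10 to 5.12.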

How the data were processed

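The authors deposited 1 table with 18 RPKM columns, one per library and lane; 0.002 marks models without reads. Further columns, per the file headers, are mean RPKM at each time, a ratio, a p-value, a t score and a signal peptide fraction (a probability from 0 to 1). Per the submitters' processing notes CASAVA 1.8.2 was used; no source used here names the aligner, read counter, genome build or annotation. Replicate numbers in the sample titles follow lanes, so the barcode was taken as the library and the 3 lanes were averaged. Whether pools came from separate cultures is not stated, so the tests measure only how the 6 libraries vary, which may be technical.

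The 11725 models that reached 1 RPKM in 3 or more libraries were fitted as log2(RPKM + 1) with limma 3.58.1 in R 4.3.3 (variance trend, no block), adjusted by Benjamini-Hochberg and called below 0.05; 1877 were not tested. Fold changes on this scale understate those of low genes. The fit was tested on simulated data with 11725 genes. Of 50 genes changed 1.5-fold it called 44, of 50 changed 2-fold 49, and all of those changed 4-fold or 8-fold. It made 7 false calls. The simulated noise was normal, independent between genes and drawn with the SDs of the same fit, and most genes were left unchanged. Shifts shared by the genes of a library were not simulated, so these calls describe the fit under its own assumptions only. Permutation tests used SciPy 1.17.1.

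The genes and 13 lists matched on annotation text were chosen with earlier results of these data known; cytochrome b561 and semialdehyde dehydrogenases were removed after the matches were seen. Alternatives changed the pseudocount, filter, scaling, variance trend, block, lanes, libraries and threshold. Named genes are both P450s, their named CYP5136 and CYP63 relatives, the 3 most abundant P450s, the 5 annotated and 3 P450 models of most similar profile and the 2 most abundant tested models of each other list. The other P450s with curated names were added afterwards.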

Additional observations from a re-analysis of the deposited data

How the results depend on the processing

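Under 19 alternatives (pseudocount, filter, scaling, variance trend, replicate block, lanes, each library left out, threshold) CYP5136A3 kept its call, with log2 fold changes from -2.59 to -2.14 and adjusted p from 2.18e-05 to 0.000887 in limma, and so did CYP63A4, from -2.06 to -1.78 and 1.26e-05 to 0.000397. With a replicate block by barcode number the log2 fold changes were -2.39 and -1.94 and the adjusted p 0.000461 and 0.000397; the block changed no call of a named gene, but left 1 cytochrome b5 model higher where 2 were. Barcode numbers did not pair the libraries: same-numbered deviations correlated at 0.136, 0.133 and -0.102. Sample numbers in the column headers match other libraries: 40 h library 1 with 96 h library 3, 2 with 1 and 3 with 2. The deviations of these pairs correlated at 0.218, -0.0971 and 0.0757, and a block by them was not fitted. Scaling by trimmed means moved the median of all models from -0.08 to -0.01. The difference between both falls ranged from -0.69 to -0.09 when 1 library was left out. The near-zero change of CYP5142A3 (1162853) (-0.02) reversed to 0.037 with trimmed-mean and 0.039 with median-ratio scaling and 0.019 without lane 2, and lay between -0.052 and 0.010 with 1 library left out; the cause was not tested. Of 966 values for 51 named genes, 945 kept direction and call, 10 lost the call, 7 gained it and 4 reversed. The shallower 96 h libraries give low models less precision.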
